A study of Homo sapiens with 4 samples.

Results

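The genes described here are 7 members of the AP-1 transcription factor family (FOS, FOSB, FOSL1, FOSL2, JUN, JUNB and JUND) and the 3 immediate early genes EGR1, IER2 and MAFF. They were found by matching the Ensembl identifier of each row to the gene symbol. All 10 were found among 60658 identifiers, and all 10 were among the 14803 genes whose FPKM averaged at least 1, the set used for every count across genes. FPKM is the number of sequenced fragments per kilobase of a gene, scaled to the total of the library.

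RNA of HT29 and LIM1215, 2 established human lines of colorectal cancer, was sequenced in 4 libraries. In each line, 1 library came from cells given a negative control siRNA (small interfering RNA, a duplex that directs the degradation of a matching mRNA) and 1 from cells given an siRNA against TMEM161A, a gene for a transmembrane protein. The titles of the knockdown libraries carry the name si2, so each knockdown is by 1 siRNA. No time after transfection was given in the sources used here. The wider study set TMEM161A beside tumour growth and outcome in colorectal cancer. As background, HT29 is described as carrying an activating BRAF mutation and LIM1215 as having none in that gene. These genotypes were not examined here. With 1 library per group there was no error between replicates, and no test of a condition was run. A fit with the lines as pairs, which takes them to respond alike, would leave 1 residual degree of freedom and was not run. Intervals below are 95% counting intervals from estimated fragment numbers, which cover counting error only and not the variation between cultures. Those of a ratio use the exact Clopper-Pearson method, and those of a difference between responses a normal approximation on the log2 scale.

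AP-1 is a dimer of proteins with a basic region, which binds DNA, and a leucine zipper, which joins the partners. JUN proteins pair with each other or with FOS proteins, whereas FOS proteins need a JUN partner. Many of these genes are immediate early genes: growth factors, serum, stress and the RAS-ERK, JNK and p38 kinase pathways switch on their transcription within minutes, without new protein synthesis, and their mRNAs decay quickly. In the colon, AP-1 is known for its part in growth, invasion and the response to RAS and BRAF signalling.

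The targeted gene and cell markers were read first. In HT29 the FPKM of TMEM161A fell from 42.6 to 4.64, or 10.9% of control (interval 9.39% to 12.6%). In LIM1215 it fell from 39.1 to 7.61, or 19.4% of control (17.2% to 22.0%). Of 10 colorectal epithelial markers, none was under an FPKM of 1 in LIM1215, with summed FPKM of 7936 before and 9796 after knockdown. In both libraries labelled HT29, KRT20, VIL1, CDX1 and CEACAM5 were under an FPKM of 1, and the summed level was 3139 and 3588. EPCAM was present there, at an FPKM of 168 and 154, as were KRT8 and KRT18. HT29 is generally described as producing carcinoembryonic antigen, the product of CEACAM5, so this measurement goes against the usual description of the line. The identity of the cells was not tested, and HT29 below means the libraries with that label. Markers of fibroblasts (6 genes), leukocytes (6) and endothelium (4) were mostly near 0. PTPRC, the defining leukocyte gene, was listed at 0 in all 4 libraries, and the exceptions were COL1A1 in every library and CD68, which had an FPKM of 6.22 to 72.2, together with LYZ, at up to 2.13 in LIM1215. In bulk RNA, fewer cells that express a gene and less RNA per cell cannot be told apart.

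The promoters of the genes are shown first, because factors that drive immediate early transcription can bind close to the start. RefSeq (GRCh38.p14) gave a promoter for 9 of the 10 genes, and FOSL1 was not matched. The 250 bases before the start were searched on both strands for the AP-1 site TGACTCA, the cAMP response element TGACGTCA, which is bound by CREB and ATF factors, the CArG box, which is bound by serum response factor, the TATA box TATAAA, the EGR1 site (GCGTGGGCG and, as a second form, GCGGGGGCG), and the ETS core CCGGAAG. The shorter motif TGACGT, which lies within the cAMP response element, was added after the sequences had been seen. Of the genes matched, 6 held TGACGT in the 250 bases (EGR1, FOS, FOSB, FOSL2, JUND and MAFF), against 7.10% of 35116 promoters. MAFF had 2 promoters, of which the second held no match, so this count is by gene and the share by promoter. The same 6 held it within 120 bases of the start, against 4.79% of promoters. The printed stretches are the 120 bases before the start of 4 of them, 5′ to 3′ on the strand of the gene, chosen because they carry the shared motif close to the start. Capitals mark every match of a searched motif, which here are TGACGT or its complement ACGTCA, the TATA box, and the pair of CArG boxes of EGR1.
FOS, chr14:75278708-75278827, plus strand: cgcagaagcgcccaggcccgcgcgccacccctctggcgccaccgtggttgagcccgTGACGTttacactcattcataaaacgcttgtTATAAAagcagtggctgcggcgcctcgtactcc
FOSB, chr19:45467876-45467995, plus strand: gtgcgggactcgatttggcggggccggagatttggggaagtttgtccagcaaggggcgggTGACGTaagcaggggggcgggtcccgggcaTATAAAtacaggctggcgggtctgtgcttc
EGR1, chr5:138465359-138465478, plus strand: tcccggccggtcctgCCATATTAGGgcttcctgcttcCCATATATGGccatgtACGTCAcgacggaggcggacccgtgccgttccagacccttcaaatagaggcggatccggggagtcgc
JUND, chr19:18281623-18281742, minus strand: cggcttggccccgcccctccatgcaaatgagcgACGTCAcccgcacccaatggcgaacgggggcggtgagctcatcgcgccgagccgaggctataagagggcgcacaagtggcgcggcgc

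Counted back from the start, the match began at −64 in FOS, −60 in FOSB, −66 in FOSL2, −67 in EGR1 and −87 in JUND. In the first promoter of MAFF the whole cAMP response element lay from −54 to −47, and JUND held a whole element farther up, from −200 to −193. A whole element was present in 1.65% of promoters. The CArG boxes of EGR1 lay from −105 to −96 and from −83 to −74, and 1.16% of promoters held such a box. The TATA box was found in FOS, FOSB and JUNB, 25 to 33 bases before the start, against 10.7% of promoters. IER2 held an ETS core (8.52% of promoters). No AP-1 site (4.20% of promoters) and no EGR1 site (5.37%) of these letters lay in the windows of the 9 genes. A match is a description of letters and not of binding. Sequence farther from the start was not searched, so a motif not found for a gene can lie outside its window. In the canonical transcripts of GENCODE release 44, JUN, JUNB and JUND have 1 exon, EGR1 and IER2 have 2, MAFF 3, and the 4 FOS genes 4 each.

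Immediate early mRNAs are known for AU-rich elements in the 3′ untranslated region, which recruit decay proteins. The pentamer ATTTA occurred in this region in 9 of the 10 genes, with IER2 as the exception, against 72.6% of 12101 coding genes with a region of at least 50 bases. Its number was 5 in FOS over 806 bases, 9 in FOSL2 over 4869 bases and 2 in JUNB over 500 bases. The longer element TTATTTATT occurred in FOS, FOSL2 and MAFF, or 3 of 10, against 9.38% of the coding genes.

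The levels of the genes, per length, were compared within each library. FOS was the highest of the 10 in all 4 libraries, and 1.54% to 2.64% of the genes tested were at least as high. JUND and IER2 were among the 4 highest in every library. EGR1 was 7th in each library. JUN, MAFF and FOSL2 held the last 3 places in every library, in that order in both HT29 libraries. In LIM1215 MAFF was last, with FOSL2 above JUN in the control and below it in the knockdown library. FOSL2, MAFF and JUN are thus the low genes of the group, yet no gene was under an FPKM of 10.9. The estimated fragments behind a value ran from 463 for MAFF in the LIM1215 control to 16831 for FOS in the LIM1215 knockdown library.

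**Figure D1:**
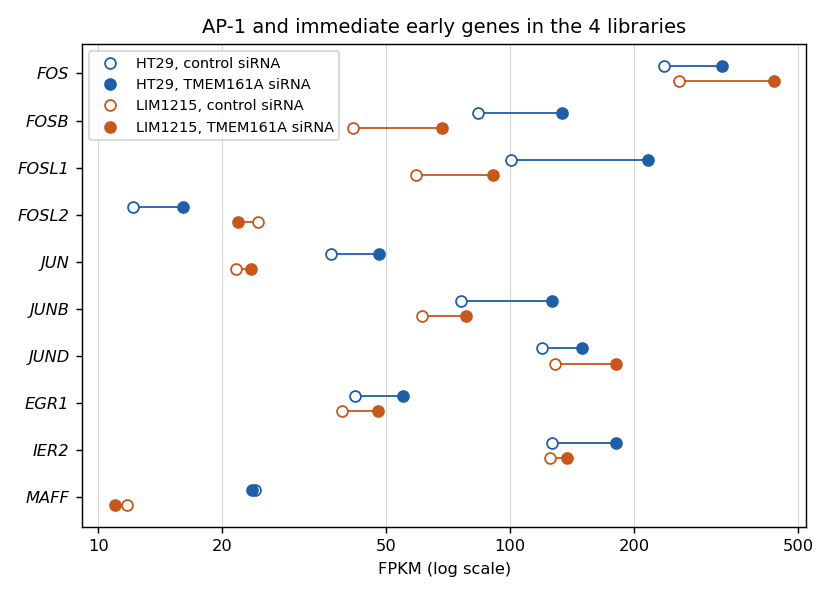
FPKM (log scale) of the 10 genes in each of the 4 libraries, with HT29 in blue, LIM1215 in orange, control siRNA as open and TMEM161A siRNA as filled points joined by a line. In HT29 the filled point lies to the right for 9 genes and close to the open one for MAFF, and in LIM1215 it lies to the left for FOSL2 and MAFF.

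The knockdown libraries were then compared with the control of their line. In HT29, 9 of the 10 genes were higher in the knockdown library, from 125% to 215% of control, and MAFF was at 98.0%. In LIM1215, 8 were higher, from 109% to 170% of control, and FOSL2 and MAFF were at 89.1% and 93.4%. A gene was counted as changed only at a log2 ratio of FPKM + 1 of at least 1 in size, a 2-fold threshold without a test. FOSL1 in HT29 was the 1 gene that passed it in HT29, and none passed it in LIM1215. Across all genes tested, 1.85% (274) were higher and 1.95% (288) lower by this threshold in HT29, and 1.68% and 1.78% in LIM1215. The HT29 split became 231 higher and 394 lower with FPKM scaled to a common sum without mitochondrial genes. The median log2 ratio of the 10 genes was 0.42 in HT29 and 0.31 in LIM1215, beside 0.04 and 0.02 for all genes tested. Of all genes tested, 53.9% were above 0 in HT29 and 53.1% in LIM1215. The 10 colorectal epithelial markers had a median of 0.31 in LIM1215, with all 10 above 0, and of 0.00 in HT29, with 4 above and 4 below. Their part in the result was not tested. In HT29, 9 of the 10 lay above the upper quartile of all genes, which was 0.27, and in LIM1215, 6 lay above it, at 0.25.

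**Figure D2:**
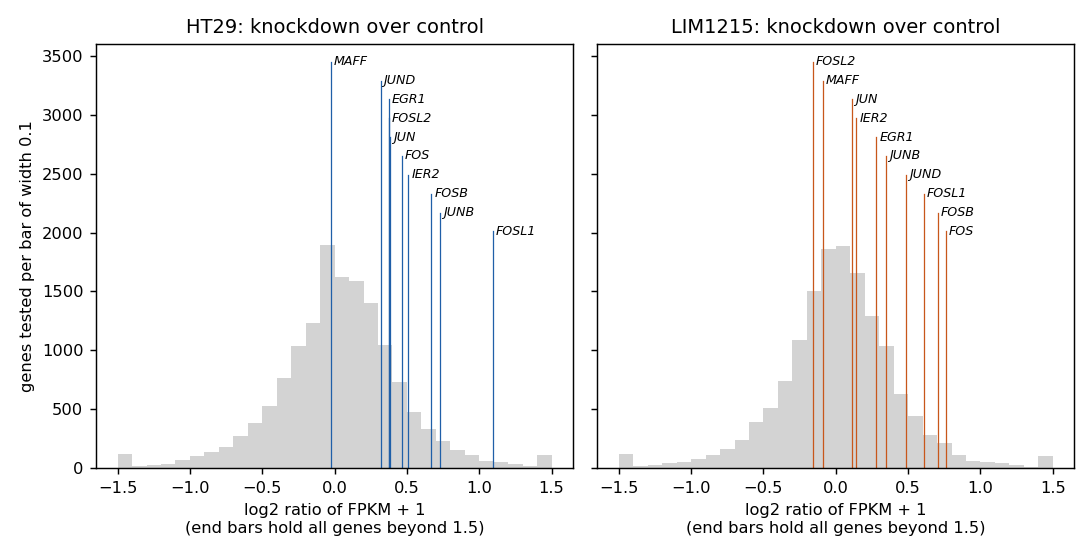
Number of genes tested (vertical axis) by log2 ratio of FPKM + 1, knockdown over control (horizontal axis), in HT29 and LIM1215, with the 10 genes drawn as labelled lines whose height has no meaning. In HT29 FOSL1 stands at 1.10, beyond the 2-fold threshold, and in LIM1215 the highest is FOS at 0.76.

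Among the FOS proteins, FOS is the classical partner of JUN. Its FPKM was 237 in the HT29 control library and 327 after knockdown, and 257 and 436 in LIM1215. Both knockdown libraries were above both controls. In HT29 this was 138% of control (interval 135% to 142%), and in LIM1215 170% (166% to 174%), with log2 ratios of 0.46 and 0.76. FOS was thus short of 2-fold in both lines.

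FOSB, a close relative of FOS with a shorter splice form known from nerve cells, had FPKM of 83.6 and 134 in HT29, and of 41.5 and 68.3 in LIM1215, control before knockdown. The knockdown libraries were higher in both lines, while both HT29 libraries were above both LIM1215 libraries. The ratios were close to each other, at 160% of control in HT29 (interval 155% to 165%) and 164% in LIM1215 (157% to 172%). Their log2 ratios were 0.67 and 0.70. The file gives 1 value per gene, so the splice forms cannot be told apart.

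FOSL1, which codes for FRA1, lacks a transactivation domain and is known as a gene kept on by sustained ERK signalling in carcinoma cells. Its FPKM rose from 100.4 to 216 in HT29, and in LIM1215 it was 59.3 before and 90.95 after knockdown. The HT29 knockdown library stood far above the other 3. In HT29 the knockdown library was at 215% of control (interval 206% to 224%), a log2 ratio of 1.10, which 1.45% of the genes tested reached. In LIM1215 it was 153% (144% to 163%), a log2 ratio of 0.61, which 6.0% of the genes reached. The HT29 call ended under 1 alternative, added after the data were seen: with FPKM scaled to a common sum over genes outside the mitochondrial chromosome, the log2 ratio was 0.99. With a common sum over all genes it was 1.02, and the call held. Of the summed FPKM, mitochondrial genes made up 15.7% before and 13.9% after knockdown in HT29, and their part in the result was not tested.

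FOSL2, which codes for FRA2, was the 1 FOS gene that went opposite ways. Its FPKM was 12.2 in the HT29 control and 16.1 in the HT29 knockdown library, 132% of control (interval 124% to 141%). In LIM1215 it was 24.5 before and 21.8 after knockdown, 89.1% of control (84.6% to 93.9%). Both HT29 libraries were below both LIM1215 libraries.

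JUN, whose protein can pair with itself as well as with FOS proteins, had FPKM of 36.8 and 48.2 in HT29 and of 21.6 and 23.5 in LIM1215. The HT29 knockdown library was at 131% of control (interval 124% to 138%). The LIM1215 one was at 109%, with an interval of 101% to 117% that came close to no difference. JUNB, often described as a weaker activator that can hold back JUN, had FPKM of 76.03 and 127 in HT29 and of 61.1 and 78.0 in LIM1215. The HT29 knockdown library was the highest of the 4, at 166% of control (159% to 175%), against 128% in LIM1215 (120% to 136%). JUNB overlaps exons of HOOK2 on the opposite strand, and the sources used here do not say if counting was by strand.

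JUND, the JUN gene that is present in resting cells and less inducible, had FPKM of 119.7 and 149 in HT29 and of 129 and 180.5 in LIM1215. Both knockdown libraries were above both controls, as for FOS. The level was 125% of control in HT29 (interval 120% to 130%) and 140% in LIM1215 (135% to 146%), the larger ratio being in LIM1215.

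**Figure D3:**
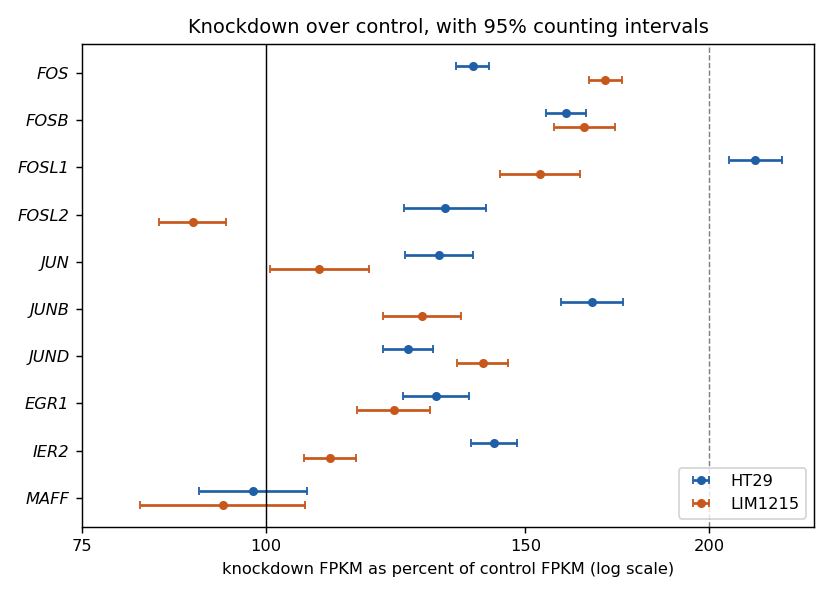
Knockdown FPKM as a percent of control FPKM (log scale) for the 10 genes, with 95% counting intervals, HT29 in blue and LIM1215 in orange. The solid line marks 100% and the dashed line 2-fold, which the HT29 point of FOSL1 alone passes, at 215%.

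EGR1, IER2 and MAFF are not AP-1 subunits of the FOS or JUN kind. EGR1, a zinc finger factor that serum response factor and ETS partners switch on, had FPKM of 42.1 and 54.9 in HT29 and of 39.1 and 47.7 in LIM1215. Both knockdown libraries were above both controls, at 130% of control in HT29 (interval 124% to 137%) and 122% in LIM1215 (115% to 129%). IER2, a nuclear protein of the early serum response, had FPKM of 127 and 181 in HT29 and of 125 and 138 in LIM1215. The controls of the lines were close to each other, and the HT29 knockdown library was the highest, at 143% of control (138% to 148%) against 110.5% in LIM1215 (106% to 115%). IER2 overlaps exons of unnamed genes on the opposite strand. MAFF, a small MAF protein that pairs with NRF2-type factors and lacks a transactivation domain, had FPKM of 24.1 and 23.6 in HT29 and of 11.8 and 11.0 in LIM1215. Its intervals, 90.1% to 107% in HT29 and 82.1% to 106% in LIM1215, both included no difference. MAFF overlaps exons of PLA2G6 on the opposite strand.

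By counting error alone, the interval lay above 100% of control for 9 genes in HT29, and for 8 in LIM1215, where that of FOSL2 lay below. The share of all genes tested with such intervals was not computed. With 463 to 16831 fragments behind a value, small differences can exclude 100%, so these counts do not set the 10 genes apart. The difference of the responses, LIM1215 minus HT29 on the log2 scale without a pseudocount, had a counting interval above 0 for FOS (0.30, interval 0.25 to 0.35) and JUND (0.17, 0.09 to 0.25). It lay below 0 for FOSL1 (−0.49, −0.59 to −0.38), FOSL2 (−0.57, −0.69 to −0.45), JUN (−0.27, −0.40 to −0.14), JUNB (−0.38, −0.49 to −0.27) and IER2 (−0.37, −0.45 to −0.29). For FOSB, EGR1 and MAFF it included 0. Here too, no share over all genes tested was computed. No gene of the 10 had responses that differed by 2-fold, and 2.55% of all genes tested (377) were higher and 2.58% (382) lower by that much in LIM1215, or 432 and 337 with FPKM scaled to a common sum. None of these differences was tested against the variation between cultures.

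The composition of the families was summed next, since FOS proteins depend on JUN partners. The summed FPKM of the 4 FOS genes was 433 in the HT29 control and 693 in the HT29 knockdown library, a ratio of 1.60. In LIM1215 it was 382 and 617, a ratio of 1.62. The summed FPKM of the 3 JUN genes was 232 and 324 in HT29, a ratio of 1.39, and 211 and 282 in LIM1215, a ratio of 1.33. The FOS sum was therefore 1.86 and 1.81 times the JUN sum in the HT29 and LIM1215 controls, and 2.14 and 2.19 times in the knockdown libraries. These are levels of mRNA, and protein was not measured here. The genes behind the like sums differed. In HT29, FOS went from 54.7% to 47.2% of the FOS sum and FOSL1 from 23.2% to 31.2%, whereas in LIM1215 FOS went from 67.2% to 70.7% and FOSL1 from 15.5% to 14.7%. Among the JUN genes, JUNB went from 32.7% to 39.0% of the sum in HT29, and JUND from 60.9% to 64.0% in LIM1215.

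**Figure D4:**
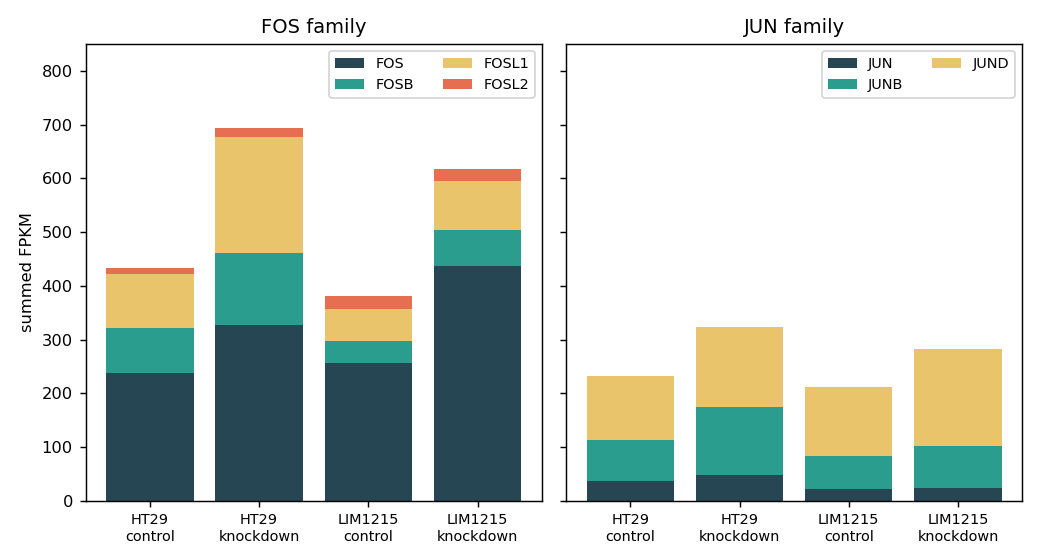
Summed FPKM of the FOS genes (left) and JUN genes (right) in the 4 libraries, with 1 colour per gene. Both sums are higher in the knockdown library of each line, with FOSL1 taking more of the FOS bar in HT29 and FOS in LIM1215.

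A direct comparison was made of the 2 control libraries. These libraries also serve in the knockdown comparisons, so the values are not independent of those above. None of the 10 genes passed 2-fold on the scale of FPKM + 1, while 12.0% of all genes tested were higher and 7.42% lower in LIM1215. With FPKM rescaled to a common sum, the counts of 1773 higher and 1099 lower became 1478 and 1465, and the median of all genes moved from 0.05 to −0.11. They became 1508 and 1413 under upper quartile scaling, and 1494 and 1453 with a common sum without mitochondrial genes. The median of the 10 genes was −0.21, and 3 of them were above 0. On the scale of FPKM + 1, FOSB and MAFF came closest to 2-fold lower, with log2 ratios of −0.99 and −0.97. As plain FPKM they were just past it, at 49.6% (interval 47.4% to 51.9%) and 48.9% (43.7% to 54.5%) of HT29. Each was past −1 under scaling to a common sum, at −1.17 and −1.15. FOSL1 (59.0%) and JUN (58.9%) were also lower in LIM1215, and JUNB stood at 80.3%. FOSL2 went the other way, at 201% of HT29 (189% to 214%) as plain FPKM, just past 2-fold, and a log2 ratio of FPKM + 1 of 0.95. FOS, JUND, EGR1 and IER2 were between 92.9% and 108% of HT29. FOS and JUND, at 0.11 and 0.10 on the log2 scale, lay on the other side of 0 under 3 scalings, at −0.07 and −0.08 after scaling to a common sum.

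The gene with the widest range over the 4 libraries was FOSL1, at 1.85 on the log2 scale. Of 12294 other coding genes, those with the nearest profile, by Euclidean distance of log2(FPKM + 1) after centring over the 4 libraries, were AMH (0.08), CTXN1 (0.13), ATP9A (0.14), SUSD2 (0.15) and STMN1 (0.15). AMH had FPKM of 6.45 and 14.9 in HT29 and of 3.60 and 5.49 in LIM1215. STMN1, which codes for a protein that destabilises microtubules, had 228 and 429 in HT29 and 119 and 187 in LIM1215. Each had its highest value in the HT29 knockdown library and its lowest in the LIM1215 control, like FOSL1, which follows from how they were chosen. A likeness over 4 libraries is a description only.

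Other genes of the pathway were read from lists chosen beside the 10 genes. The lists were chosen with earlier results of these data known, so their counts are no separate support. Of 40 further immediate early genes, 37 passed the filter on low values, which keeps a gene by its mean. In HT29, 32 were above 0 and 5 below, with a median log2 ratio of 0.49, and in LIM1215, 29 were above and 8 below, with a median of 0.35. BTG2 and KLF2 passed 2-fold in both lines, none passed it downward, and the shares among all genes are those given above. BTG2, an antiproliferative gene and p53 target, rose in HT29 from an FPKM of 25.3 to 71.5, a log2 ratio of 1.46. In LIM1215 it rose from 50.7 to 108, a log2 ratio of 1.08. KLF2, a zinc finger factor, rose in HT29 from 22.6 to 59.9 and in LIM1215 from 19.9 to 47.7, with log2 ratios of 1.37 and 1.22. Between the controls, 5 of these genes were higher and 5 lower in LIM1215 by 2-fold, beside 12.0% and 7.42% of all genes tested. The 4 largest among these immediate early genes were PTGS2, the inducible cyclooxygenase (log2 ratio 2.28), HBEGF, an EGFR ligand (1.75), PHLDA1 (−1.52) and CCN1, a matrix protein (−1.36).

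Genes of the upstream kinases and factors were read next. Across all genes tested, 1.85% were past 2-fold upward and 1.95% downward in HT29, and 1.68% and 1.78% in LIM1215. Between the controls, 12.0% were higher and 7.42% lower in LIM1215. No gene of the RAS-ERK list passed 2-fold in either line or between the controls, with medians over its 15 genes of 0.11 in HT29 and 0.20 in LIM1215. In the JNK and p38 list (13 of 14 genes tested, medians 0.06 and 0.00), MAP2K4, a kinase that activates JNK, rose in HT29 from an FPKM of 10.3 to 23.6, a log2 ratio of 1.12. Its FPKM in LIM1215 was 11.1 and 21.9, a log2 ratio of 0.92 just short of the threshold. Between the controls, 2 genes of this list passed 2-fold, both higher in LIM1215, beside the 12.0% of all genes tested given above. The p38 activator MAP2K6 had a log2 ratio of 2.31, from an FPKM of 0.21 in HT29, near the floor, against 4.96 in LIM1215. MAP2K6 passed the filter on low values through LIM1215 alone. The p38 kinase MAPK13 had a log2 ratio of 1.31, at an FPKM of 18.5 in HT29 against 47.3 in LIM1215. Of 9 upstream transcription factors (medians 0.20 and 0.12), ELK3 passed 2-fold in both lines. ELK3 is an ETS factor that binds next to serum response factor and represses FOS until ERK phosphorylates it. In HT29 its FPKM rose from 21.2 to 51.1, a log2 ratio of 1.23, and in LIM1215 from 11.8 to 25.5, a log2 ratio of 1.05.

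Among 13 other basic zipper genes that can pair with AP-1 or MAF proteins, 8 passed the filter. None passed 2-fold in either line, with medians of 0.25 in HT29 and 0.05 in LIM1215. BATF2, an interferon-inducible factor, was higher in the LIM1215 than in the HT29 control, at an FPKM of 7.01 against 0.95. COP1, DET1, FBXW7 and ITCH, which direct the degradation of JUN, were all below 0 in both lines, as were 44.4% and 46.4% of all genes tested, and short of 2-fold, with medians of −0.07 and −0.16. The counting intervals of DET1 and FBXW7 in HT29 and of ITCH in LIM1215 included no difference.

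Described targets of AP-1 were examined last. Of 30 genes, 23 passed the filter, and 7, among them MMP1, MMP3, MMP9, MMP10 and MMP13, did not. In HT29, 14 were above 0 and 9 below (median 0.27), with 3 past 2-fold upward and 1 downward. Of all genes tested, 53.9% were above 0 there, and 1.85% and 1.95% passed 2-fold upward and downward. LAMB3, a laminin chain of basement membranes, rose there from an FPKM of 31.3 to 74.1, a log2 ratio of 1.22. F3, the tissue factor of blood clotting, rose from 26.3 to 62.0 (1.21), and AXL, a receptor tyrosine kinase, from 31.5 to 67.6 (1.08). The call of AXL, like that of FOSL1, ended with a common sum without mitochondrial genes, at 0.97. The AXL call also ended with 5 as the pseudocount, at 0.99, where that of FOSL1 held at 1.07. SPP1, which codes for osteopontin, fell from 4.47 to 1.496 (−1.13), on an estimated 129 and 43.8 fragments. In LIM1215, 10 were above 0 and 13 below (median −0.07), beside 53.1% of all genes tested above 0, and none passed 2-fold. There LAMB3 had a log2 ratio of 0.13, F3 of −0.10, AXL of 0.15 and SPP1 of −0.58. Between the controls, 6 targets were higher and 3 lower in LIM1215 by 2-fold, beside 12.0% and 7.42% of all genes tested. Among these targets were EREG, an EGFR ligand (−1.85), HBEGF (1.75) and LAMB3 (1.67). ATF3, SRF and HBEGF stand in 2 of the lists each.

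**Figure D5:**
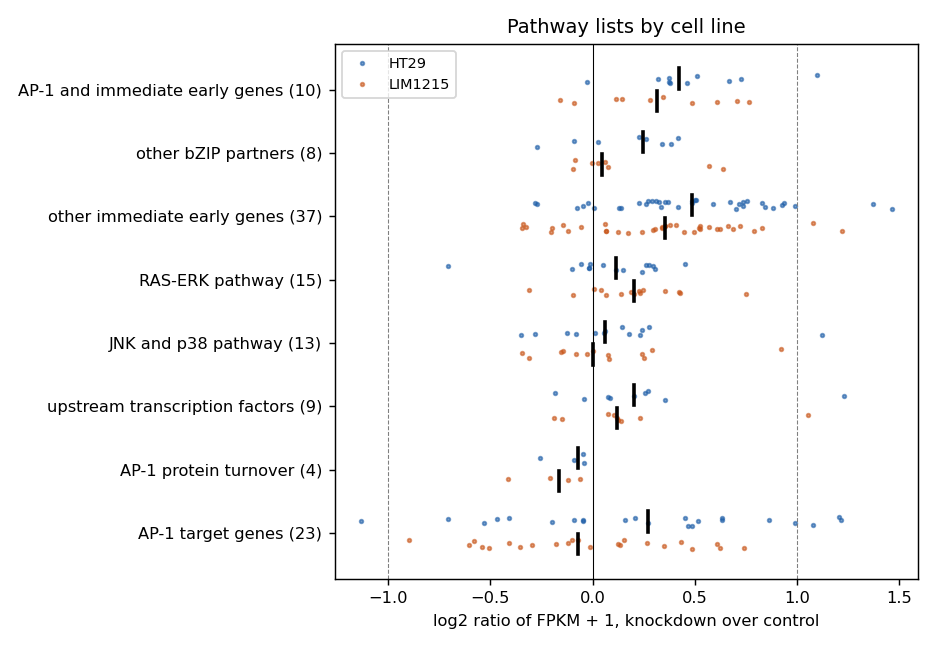
Log2 ratio of FPKM + 1, knockdown over control, for each gene that passed the filter on low values, by list (number of genes in brackets), HT29 in blue and LIM1215 in orange, with the median as a black bar and 2-fold as dashed lines. The medians of the other immediate early genes are 0.49 and 0.35, while those of the AP-1 targets lie on opposite sides of 0.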

How the data were processed

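The authors deposited 1 table of FPKM values per library, with a row per Ensembl gene. Per the submitters' processing notes, HISAT2 2.1.0, SAMtools 1.20, Cufflinks 2.2.1, Cuffdiff and GRCh38 were used. Their order, the gene annotation, filters and the use of strand are not given in the sources used here. Per the labels' protocols, a stranded mRNA library kit was used. FPKM is relative to a library's total, so scaling moves all genes of a library together. Groups followed the sample titles.

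From these values, log2 ratios of FPKM plus a pseudocount of 1 were computed with numpy 2.4.6 and pandas 2.3.3, for genes with a mean FPKM of at least 1 (14803 genes), and counted at 2-fold. No p-value was computed. Depth was estimated from the steps of low values in genes with 1 transcript of at least 500 bases. An FPKM of 1 stood for 18.12 to 21.56 fragments per kilobase after a length offset of 202 bases, and 75.6% to 77.0% of low values lay within 0.03 of a whole number, so the fragment numbers are estimates. The step search was tested on simulated fragments of known depth. The counting of calls was run on made-up fixed changes without noise, which checks its arithmetic only. Symbols, positions, exons and untranslated regions came from GENCODE release 44 on GRCh38, matched for 56550 identifiers, and promoters from RefSeq.

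The 10 genes and all lists were chosen with earlier results of these data known. Named beside them were the genes of each list past 2-fold, at most 4 per list and comparison, and the 5 profiles nearest to the gene of widest range. Of the genes this rule gives, 1 is not reported here. The alternatives were other pseudocounts, filters, scalings and a lower threshold.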

Additional observations from a re-analysis of the deposited data

Results flagged for a closer look

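The signs of 3 results differed between the lines in the comparison of knockdown with control libraries. Each group had 1 library, so these differences were not tested. The log2 ratio of FOSL2 was 0.38 for HT29 and −0.16 for LIM1215, which differ by −0.54. That of F3, the tissue factor gene, was 1.21 and −0.10, which differ by −1.31. The median over the AP-1 target genes was 0.27 and −0.07, which differ by −0.34, while the median of the differences gene by gene was −0.19.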

How the results depend on the processing

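Each group has 1 library, so none was left out in turn, and a fit with the lines as pairs was not run. Across 10 settings, 107 values that answer a comparison stayed within 1.5 times the reported count, or, for medians, within the mean reach of the counting intervals, and 53 moved. Counts past 2-fold are given below as higher and then lower. In HT29 they were 570 and 558 with 0.1 as the pseudocount. This also gave 476 and 508 in LIM1215, and 717 and 731 for the difference of the responses, and 3 of the 10 genes passed between the controls. In HT29 they were 87 and 94 with 5 as the pseudocount. This also gave 68 and 88 in LIM1215, 947 and 353 between the controls, and 116 and 118 for the difference. Without a filter, 395 were higher in LIM1215, and 701 and 668 for the difference. At a mean FPKM of at least 5 they were 128 and 144, 89 and 113, 1107 and 563, and 112 and 134, in the same order. With protein-coding genes alone they were 118 and 155 in HT29, 93 and 109 in LIM1215, and 147 and 140 for the difference. At a 1.5-fold threshold they were 1165 and 1023 in HT29, 982 and 915 in LIM1215, 3220 and 2409 between the controls, and 1154 and 1180 for the difference, with 3, 3 and 5 of the 10 genes past it in the first 3. Centring the log2 ratios, scaling to a common sum and upper quartile scaling each put 2 of the 10 genes, FOSB and MAFF, past 2-fold between the controls. The common sum gave a median of the 10 genes of −0.39 there and of 0.34 in HT29, and upper quartile scaling one of −0.36 between the controls. A common sum without mitochondrial genes, added after the data were seen, gave 0 of the 10 past 2-fold and a median of 0.31 in HT29, and 2 and −0.37 between the controls. The difference for MAFF between the lines, −0.06, was 0.01 with either common sum. With 5 as the pseudocount, the 2-fold calls of MAP2K4 (0.90) and SPP1 (−0.54) in HT29, of ELK3 in LIM1215 (0.86), and of MAP2K6 (0.94) and PTGS2 (0.96) between the controls ended. Depth limits low genes such as SPP1, whose interval in LIM1215 was 29.2% to 82.7% of control.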

Other observations

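Further immediate early genes belong to families that were not described above. They were singled out after their values had been seen, and none passed 2-fold in either line. Most of their log2 ratios lie above the medians of their list, 0.49 in HT29 and 0.35 in LIM1215. Those of ZFP36L2 in LIM1215, and of NR4A3 and PLK3 in both lines, lie below. The list also held 5 genes below 0 in HT29 and 8 in LIM1215. The lowest were IER5L at −0.28 in HT29 and NFIL3 at −0.34 in LIM1215. The ZFP36 family codes for proteins that bind AU-rich elements and promote mRNA decay. ZFP36 had an FPKM of 74.1 and 142 in the HT29 control and knockdown libraries and of 83.4 and 124 in LIM1215, with log2 ratios of 0.93 and 0.57. ZFP36L1 had log2 ratios of 0.70 and 0.53, and ZFP36L2 of 0.94 and 0.24. The orphan nuclear receptors NR4A1 and NR4A2, both immediate early genes, had log2 ratios of 0.49 and 0.83 in HT29 and of 0.45 and 0.62 in LIM1215. NR4A3, which did not pass the filter on low values, had 0.24 and −0.13. PLK2, a polo-like kinase, had 0.99 and 0.66, and its relative PLK3 had 0.26 and 0.34. RHOB, a small GTPase with a short-lived mRNA, had 0.88 and 0.79.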
